A study of Mus musculus with 8 samples.

Results

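Keratins are the intermediate filament proteins of epithelial cells. The gene family described here was taken as every row of the deposited count table whose symbol is Krt followed by a number and at most 1 letter, which left out keratin-associated proteins and pseudogenes. It held 54 of the 53170 named genes, 28 of type I and 26 of type II. RNA came from mouse organoids kept for 5 days in growth medium, which had been started from glandular stomach (hindstomach) epithelium at embryonic day 18.5. The 4 control libraries carried Shh-Cre alone, a recombinase driven in cells that express Shh, which include foregut endoderm. The 4 YAP5SA libraries carried the same Shh-Cre together with YAP5SA, an active form of the Hippo pathway coactivator YAP, so both groups shared the Cre. Whether the 4 libraries of a genotype trace back to different embryos or cultures is not given in the labels, so each p reflects the variation among the libraries at hand, and that variation may be technical.

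A keratin filament is an obligate heteropolymer of an acidic type I and a basic type II chain, and most cell types use characteristic pairs. Simple epithelia such as the glandular stomach are built on the type II products of Krt8 and Krt7 and the type I products of Krt18 and Krt19, with Krt20 added in differentiated surface cells of the gut. Stratified epithelia use Krt5 with Krt14 in the basal layer and, in internal mucosae such as oesophagus and forestomach, Krt4 with Krt13 above it. Hair keratins and the keratins of the inner root sheath belong to the follicle.

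Among the tested keratin genes, Krt4 showed the largest rise and Krt23 the largest fall in YAP5SA organoids, by 8.19-fold and 18.1-fold. Of the 4 abundant simple keratin genes, Krt8 fell 1.66-fold, while Krt7, Krt18 and Krt19 differed by at most 1.18-fold. Of the 15 keratins counted often enough to test, 4 rose (Krt4, Krt6a, Krt20 and Krt80), 6 fell (Krt7, Krt8, Krt15, Krt19, Krt23 and Krt79) and 5 did not pass the test (Krt10, Krt13, Krt18, Krt33a and Krt87), at a threshold of 0.05 on the p of edgeR's quasi-likelihood test after Benjamini-Hochberg adjustment over 14058 genes. Across all tested genes 49.1% were called, 23.6% as higher and 25.5% as lower. A change of at least 2-fold was called in 7 of the 15, against 13.8% of all tested genes. Levels of the 2 groups did not overlap in 10 of the 15, against 45.7% of all tested genes. The median log2 fold change was −0.12 for the tested keratins and 0 for all tested genes, and the median of its absolute size was 0.73 and 0.26. Of the 15, 3 passed the filter on low counts through 1 group only. With CPM taken over the unscaled library total, Krt6a was above the filter's cutoff of 0.611 CPM in 1 control library. On the same scale Krt15 was above it in 2 YAP5SA libraries and Krt79 in 0 YAP5SA libraries. The counts over tested members are therefore a description and not a property of the family. All other levels are in CPM as counts relative to the TMM-scaled size of each library, and fold changes compare YAP5SA with control.

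Promoter sequences are shown for 4 members on which the results turn. Krt20 and Krt23 are neighbours on chromosome 11 that moved in opposite directions, and Krt8 and Krt18 are neighbours on chromosome 15 whose products pair but whose RNA levels parted. Each window holds 250 bases before and 50 bases after the RefSeq start site in GRCm38.p6, read 5′ to 3′ on the strand of the gene. Capitals mark every match, on either strand, to the letters TATAAA, a core promoter box, to GGAATG, the core bound by TEAD, the DNA-binding partner of YAP, to TGANTCA, an AP-1 site, to AGATAA, a motif of GATA factors, or to CCCACCC, a motif of KLF factors. The windows lie at chr11:99438104-99438403 (minus strand, Krt20), chr11:99493071-99493370 (minus strand, Krt23), chr15:102004293-102004592 (minus strand, Krt8) and chr15:102027966-102028265 (plus strand, Krt18).
Krt20: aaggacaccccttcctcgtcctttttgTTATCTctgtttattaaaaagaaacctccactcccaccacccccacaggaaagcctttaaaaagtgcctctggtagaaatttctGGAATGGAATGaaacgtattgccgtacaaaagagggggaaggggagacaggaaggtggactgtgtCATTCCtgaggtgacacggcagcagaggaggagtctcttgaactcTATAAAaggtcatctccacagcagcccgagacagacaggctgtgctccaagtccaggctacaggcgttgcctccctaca
Krt23: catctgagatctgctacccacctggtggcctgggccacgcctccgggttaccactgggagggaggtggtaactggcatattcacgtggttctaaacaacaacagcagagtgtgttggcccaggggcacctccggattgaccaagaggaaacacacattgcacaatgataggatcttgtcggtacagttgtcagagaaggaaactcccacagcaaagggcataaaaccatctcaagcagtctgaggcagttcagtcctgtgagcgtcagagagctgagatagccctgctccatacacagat
Krt8: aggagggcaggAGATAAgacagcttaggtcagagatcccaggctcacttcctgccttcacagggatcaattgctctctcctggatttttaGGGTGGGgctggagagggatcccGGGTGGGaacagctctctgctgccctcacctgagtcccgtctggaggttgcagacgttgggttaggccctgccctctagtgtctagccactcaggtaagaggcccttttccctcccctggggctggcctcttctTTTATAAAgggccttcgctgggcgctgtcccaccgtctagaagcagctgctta
Krt18: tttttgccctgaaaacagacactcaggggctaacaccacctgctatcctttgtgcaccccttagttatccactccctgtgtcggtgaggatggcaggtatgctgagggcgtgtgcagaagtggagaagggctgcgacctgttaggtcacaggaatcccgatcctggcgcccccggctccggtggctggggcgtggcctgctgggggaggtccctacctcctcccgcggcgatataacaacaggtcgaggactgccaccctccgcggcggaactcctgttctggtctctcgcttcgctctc

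The Krt20 window held 3 matches to the TEAD core, beginning at positions −139, −134 and −74 from the start site. The first 2 overlap and lie on the strand of the gene, and the third lies on the other strand. One match or more stood in 14.7% of the 32851 promoter windows of the table, and at least 3 matches in 43 of them (0.13%). Among the 37 windows of the 36 keratin genes with an entry, the TEAD core was found in 3 (8.11%). These were Krt20, Krt14 and Krt78, of which Krt14 and Krt78 were counted too rarely to be tested. The tested keratins Krt4, Krt6a, Krt15, Krt19, Krt33a, Krt80 and Krt87 had no entry and were not searched. Krt20 was thus the only keratin called higher that had a window. Krt20 also held a TATA box at −29 and a GATA match on the other strand. The Krt8 window held 1 GATA match, 2 KLF matches and TATAAA on both strands in overlapping positions at the start site. Krt23 and Krt18 held no match to these letters in this window. TATAAA stood in 19 of the 37 keratin windows (51.4%) against 13.6% of all windows, and AGATAA in 10 (27%) against 11.2%. Most of these windows belong to keratins that were not tested. Among the tested keratins, only Krt8, Krt10 and Krt20 held TATAAA, and only these and Krt79 held AGATAA. Matches were counted anywhere in the window. CCCACCC stood in 5 (13.5%) against 17.5%, and TGANTCA in 2 (5.41%), both at the 2 start sites of Krt13, against 7.81%. These matches are descriptions of letters and not of bound sites.

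The type II keratins of simple epithelia were Krt7 and Krt8. Krt8 encodes the chain that pairs with the Krt18 product and is the earliest keratin of the embryo. Its levels were 1649, 1708, 1648 and 1829 CPM in controls 1 to 4 and 1056, 1021, 1026 and 1011 CPM in YAP5SA 1 to 4. All YAP5SA libraries lay below all controls, and the spread within YAP5SA was small, with a coefficient of variation of 1.85%. Krt8 fell from 1709 ± 85.1 to 1029 ± 19 CPM (SD, n = 4), or 1.66-fold (log2 fold change −0.73 ± 0.05 SE, adjusted p = 9.53e-10, edgeR). The pseudogene Krt8-ps, which can share reads with Krt8, was at 5.81 to 8.66 CPM in controls and 4.31 to 5.52 CPM in YAP5SA.

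Krt7, a type II keratin of ductal and glandular epithelia, had 1968, 2049, 1982 and 2071 CPM in controls and 1977, 1813, 1740 and 1843 CPM in YAP5SA. YAP5SA 1 lay within the range of the controls, so the groups overlapped. Krt7 fell by 0.13 on the log2 scale (SE 0.05, adjusted p = 0.0446, edgeR). That call was lost with library size as the only scaling (adjusted p = 0.129, edgeR), without a filter on low counts (0.106), and without any one of controls 2 and 3 and YAP5SA 2, 3 and 4 (0.0521 to 0.138).

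Krt80, a type II keratin with a wide distribution over epithelia, was called higher. It had 52.4, 53.6, 48.4 and 62.4 CPM in controls and 137.9, 118.6, 122 and 115.8 CPM in YAP5SA. No YAP5SA library came near the highest control, control 4. The rise was 2.29-fold (log2 fold change 1.19 ± 0.08 SE, adjusted p = 3.63e-10, edgeR).

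The type I keratins of simple epithelia were Krt18, Krt19, Krt20 and Krt23. Krt18, the partner of Krt8, had 1399, 1485, 1497 and 1478 CPM in controls and 1395, 1336, 1284 and 1390 CPM in YAP5SA. The lowest control lay just above the highest YAP5SA library, and the groups did not overlap. Its log2 fold change of −0.12 ± 0.05 SE missed the threshold (adjusted p = 0.0594, edgeR), although it passed with the DESeq2 Wald test (adjusted p = 0.0242). It also passed with a filter at 1 CPM in at least 4 libraries (adjusted p = 0.0495, edgeR) and without control 1 or control 4 (0.0371 and 0.0395). Krt19, the smallest keratin and a marker of ductal and progenitor cells of the gut, had 2436, 2501, 2570 and 2666 CPM in controls and 2260, 2137, 2058 and 2165 CPM in YAP5SA. The groups did not overlap, and Krt19 fell 1.18-fold (log2 fold change −0.24 ± 0.05 SE, adjusted p = 0.000769, edgeR).

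Krt20, a keratin of differentiated gut surface cells and of umbrella cells of the urothelium, had 16.7, 13, 18.3 and 18.2 CPM in controls. In YAP5SA it had 105.7, 86.4, 91.8 and 95.6 CPM. Each YAP5SA library was far above each control, and the rise was 5.74-fold (log2 fold change 2.52 ± 0.10 SE, adjusted p = 7.33e-13, edgeR). Krt23, an atypical type I keratin of glandular and gastrointestinal epithelium, went the other way. It had 146.8, 169.7, 157.8 and 163.4 CPM in controls and 8.22, 9.28, 9.65 and 7.95 CPM in YAP5SA. Krt23 had the smallest adjusted p of the family (2.01e-17, edgeR; log2 fold change −4.18 ± 0.08 SE).

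**Figure D1:**
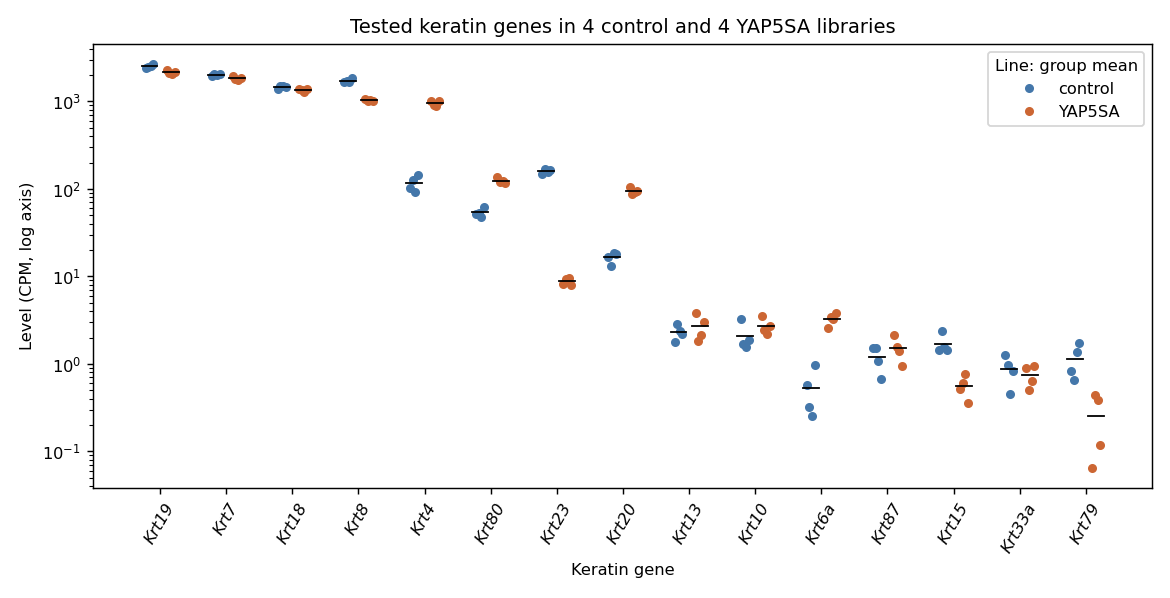
Level of each tested keratin gene in every library (CPM, log axis), with 1 point per library and a line at the group mean. Krt4, Krt20, Krt80 and Krt6a were higher in all 4 YAP5SA libraries than in any control, and Krt23 was lower at 7.95 to 9.65 CPM against 146.8 to 169.7 CPM.

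Among keratins of stratified mucosa, Krt4 and its usual type I partner Krt13 did not move together. Krt4 had 101.7, 128.1, 92.4 and 143.3 CPM in controls and 1010, 902.8, 893.3 and 998.2 CPM in YAP5SA. Its coefficient of variation was 20.2% in controls and 6.47% in YAP5SA. The log2 fold change was 3.03 ± 0.13 SE (adjusted p = 1.2e-08, edgeR). Krt13 had 1.77, 2.87, 2.39 and 2.17 CPM in controls and 3.82, 1.82, 2.12 and 3 CPM in YAP5SA. Those ranges overlap, and the log2 fold change of 0.21 ± 0.26 SE was not called (adjusted p = 0.526, edgeR).

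Keratins of the basal layer were near the limit of detection in both groups. Krt15, a type I keratin of basal and follicle stem cells, had 1.45, 2.38, 1.58 and 1.43 CPM in controls and 0.518, 0.607, 0.772 and 0.353 CPM in YAP5SA. It fell 3.04-fold without overlap (adjusted p = 0.000584, edgeR). Krt5 had 6, 18, 4 and 8 counts in controls and 0 in every YAP5SA library, at least 11.8-fold lower when 3 counts over the 4 libraries are taken as the floor. Its partner Krt14 had 8 counts in controls, in 2 libraries, and 2 in 1 YAP5SA library, and the ratio of pooled levels of 3.93 had a counting interval (95%, exact) from 0.784 to 38.

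Keratins induced in wounds and under stress were led by Krt6a, a type II keratin of injured and hyperproliferative epithelium. It had 0.568, 0.325, 0.254 and 0.975 CPM in controls and 2.59, 3.42, 3.28 and 3.77 CPM in YAP5SA. The rise was 6.45-fold without overlap (log2 fold change 2.69 ± 0.34 SE, adjusted p = 3.04e-06, edgeR), from 33 to 217 counts in all. The copy Krt6b is nearly identical, so the split of reads between them is uncertain, and it had 9 counts in controls and 16 in YAP5SA. The type I partners of the wound response were rarely counted. Krt16 had 15 counts in controls and 4 in YAP5SA, a ratio of pooled levels of 3.68 (95% counting interval 1.17 to 15.2). Without a filter on low counts Krt16 was not called (adjusted p = 0.232, edgeR). Krt17 had 0 counts in controls and 3 in YAP5SA, the latter all in YAP5SA 4.

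Epidermal keratins other than Krt80 were low. Krt79, a type II keratin of sebaceous duct and follicle opening, had 0.821, 0.65, 1.37 and 1.72 CPM in controls and 0.0647, 0.442, 0.386 and 0.118 CPM in YAP5SA. It fell 4.3-fold without overlap (adjusted p = 0.00198, edgeR). Krt10, the type I keratin of suprabasal epidermis, had 3.22, 1.68, 1.58 and 1.88 CPM in controls and 3.56, 2.43, 2.19 and 2.71 CPM in YAP5SA. Its groups overlapped through control 1, and it did not pass the test (adjusted p = 0.239, edgeR), but did without that library (log2 fold change 0.66, adjusted p = 0.0443, edgeR). Its type II partner Krt1 had 2 counts in each group. Exons of Krt10, Krt6a, Krt7, Krt8 and Krt80 overlap genes of the other strand in GENCODE M21, by 19.5% of the exon length for Krt6a and the antisense gene Gm49428 and by at most 6.91% for the rest, and reads of both strands cannot be told apart where strand was not used.

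Of the hair shaft keratins, 2 were tested and neither passed. Krt33a had 0.458 to 1.26 CPM in controls and 0.497 to 0.942 CPM in YAP5SA (adjusted p = 0.651, edgeR), and Krt87 had 0.675 to 1.52 and 0.942 to 2.14 CPM (adjusted p = 0.45, edgeR). Both belong to groups of near-identical copies, and how reads were split between such copies is uncertain. The remaining hair shaft genes had at most 20 counts in all 8 libraries.

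Of the 39 keratins that were not tested, 14 had no count in any library, which allows a level of up to 0.0446 CPM in controls and 0.0454 CPM in YAP5SA (3 counts over the group, counting error only). These were Krt2, Krt24, Krt25, Krt26, Krt27, Krt32, Krt34, Krt71, Krt72, Krt74, Krt76, Krt77, Krt81 and Krt82, mostly genes of the follicle and the cornified epidermis. The other 25 had between 1 and 57 counts in all. Krt90 had 13, 19, 6 and 15 counts in controls and 0, 1, 3 and 0 in YAP5SA, a ratio of pooled levels of 13 (95% counting interval 4.79 to 49.5). Krt78 had 21 and 3 counts, a ratio of 6.87 (2.05 to 36). Krt83 had 17 counts in controls and 0 in YAP5SA, at least 5.57-fold lower, but 14 of the 17 stood in control 1. Krt88 had 9 counts in controls, all in control 1, and 11 in YAP5SA.

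The remaining untested genes had few counts, some of them in 1 group only. Krt39, Krt84 and Krt86 had 6, 4 and 5 counts in controls and 0 in YAP5SA. Krt12, the keratin of cornea, had 0 counts in controls and 6 in YAP5SA, and 54.4% of its exon length overlaps an antisense gene. Krt36 had 8 and 12 counts and Krt222 had 6 and 6. The genes Krt9, Krt28, Krt31, Krt33b, Krt35, Krt40, Krt42, Krt73 and Krt75 had at most 3 counts in either group. When all genes with a count were tested without a filter, Krt5, Krt78, Krt83 and Krt90 were also called lower (adjusted p = 2.5e-06, 0.0361, 0.00289 and 5.71e-06, edgeR), and no untested keratin was called higher. In that fit 28% of all genes were called, 14% as higher and 14% as lower.

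**Figure D2:**
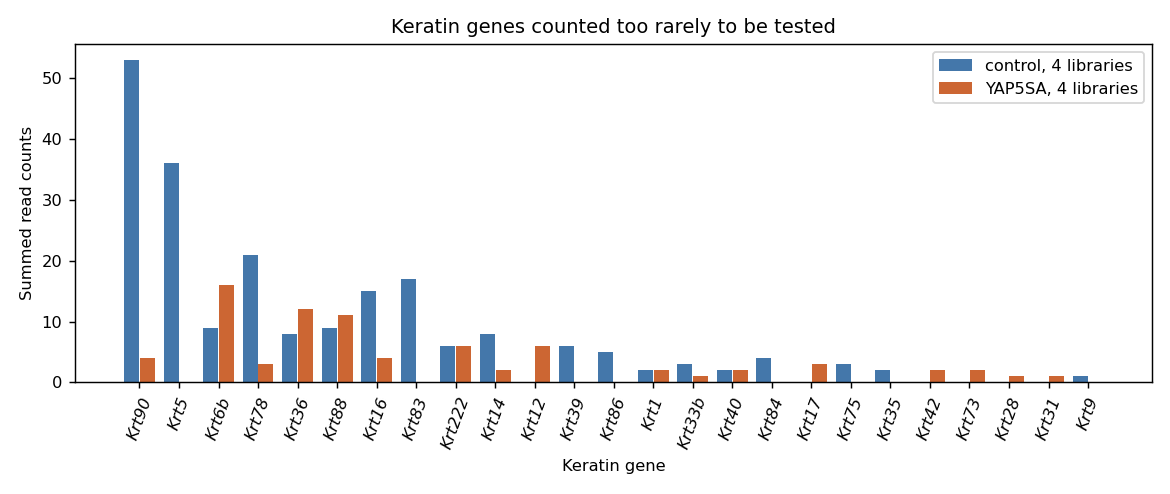
Summed read counts over 4 control and 4 YAP5SA libraries of the 25 keratin genes that had a count but were not tested, with a pair of bars per gene. Krt90 (53 against 4 counts) and Krt5 (36 against 0 counts) differed most.

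The share of keratins in all counts overlapped between the groups, while the make-up of the keratin RNA did not. Keratins took 0.769%, 0.805%, 0.801% and 0.825% of the named counts of the controls and 0.804%, 0.754%, 0.72% and 0.776% of those of the YAP5SA libraries. YAP5SA 1 and YAP5SA 4 lay within the range of the controls, and the exact binomial 95% interval was narrow in each library, at 0.82% to 0.83% in control 4. Simple epithelial keratins made up 97.7% ± 0.31 of the keratin counts in controls and 85.6% ± 0.39 in YAP5SA (SD, n = 4). The mucosal keratins Krt4 and Krt13 went from 1.46% ± 0.25 to 12.6% ± 0.41, nearly all of it Krt4. Fewer cells with a keratin and less of its RNA per cell cannot be told apart in such bulk libraries.

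Levels of different genes were compared as counts per length, with the longest protein-coding transcript of GENCODE M21 as length. On this scale Krt19 was the most abundant keratin in both groups, at 38.6% ± 0.52 of the keratin total in controls and 35.8% ± 0.22 in YAP5SA (SD, n = 4). Krt18 followed with 24.4% ± 0.61 and 24.6% ± 0.34. Krt8 came next in both groups, at lower levels in YAP5SA, going from 20.9% ± 0.50 to 13.8% ± 0.44. Krt7 held the same share per length, 11.8% ± 0.21 and 11.8% ± 0.20.

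Krt4 rose from 1.30% ± 0.23 to 11.7% ± 0.38 of the keratin total per length. In YAP5SA its 4 libraries ran from 11.25% to 12.1%, which overlaps the 11.6% to 12.1% of Krt7 in the same libraries. Krt23 fell from 2.43% ± 0.11 to 0.147% ± 0.019, and Krt20 rose from 0.205% ± 0.030 to 1.29% ± 0.07. Type I chains together made up 65.7% ± 0.79 of the total per length in controls and 61.9% ± 0.27 in YAP5SA. The 4 controls ranged from 65% to 66.8% and the YAP5SA libraries from 61.7% to 62.2%, without overlap. The order of Krt7 and Krt4 in YAP5SA depends on the length used, since over the union of all exons Krt7 held 7.65% ± 0.14 and Krt4 13.1% ± 0.42.

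**Figure D3:**
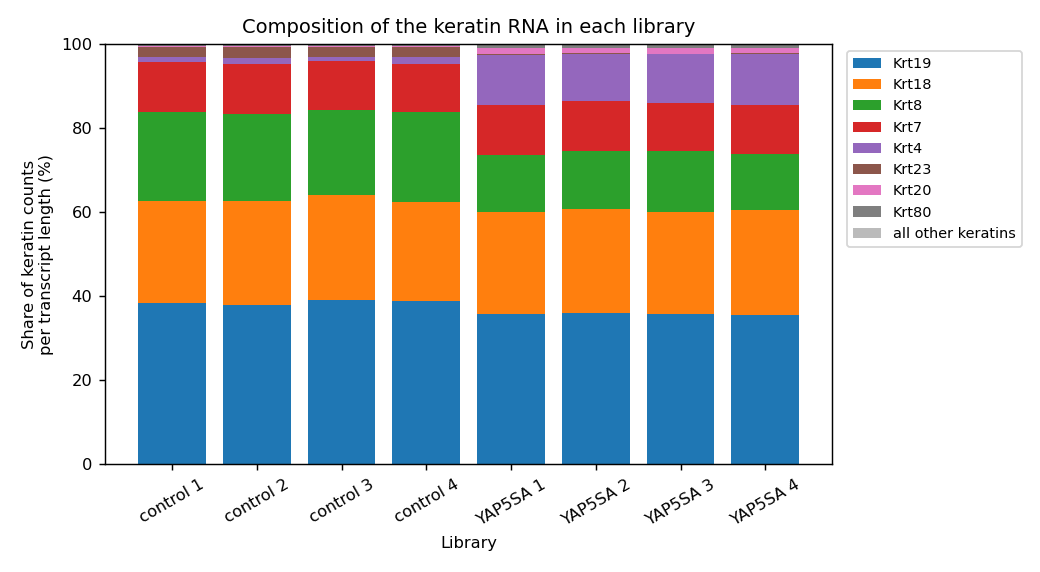
Share of each keratin in the keratin counts per transcript length (percent, linear axis from 0), 1 bar per library. Krt8 took 20.2% to 21.4% in controls and 13.4% to 14.3% in YAP5SA, and Krt4 took 1.04% to 1.54% and 11.25% to 12.1%.

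Ratios of counts within a library do not depend on how libraries are scaled, and they test whether 2 keratins changed to the same extent. Of 15 listed pairs, 11 had at least 10 counts of both genes in every library. In 10 of these 11 pairs the ratio differed between groups without overlap, each at the smallest p that 4 libraries against 4 allow (two-sided exact permutation test, p = 0.0286, and adjusted p = 0.0314 over 11 pairs). The pairs share genes, above all Krt8 and Krt18, so they are not independent. No share over pairs of other genes was computed, and of all tested genes taken singly 45.7% did not overlap. The count of pairs is therefore not read as a trait of keratins. The log2 ratio of Krt8 to its partner Krt18 was 0.24, 0.20, 0.14 and 0.31 in controls and −0.40, −0.39, −0.32 and −0.46 in YAP5SA. Krt8 counts therefore exceeded Krt18 counts in all 4 controls and fell short of them in all 4 YAP5SA libraries, a difference of −0.61.

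The ratio of Krt7 to Krt18 gave the one pair that did not pass. It was 0.46 ± 0.04 in controls and 0.45 ± 0.04 in YAP5SA on the log2 scale (SD, n = 4; two-sided exact permutation p = 0.571), and leaving out 1 library moved the difference between −0.03 and 0. Krt7 gained on Krt8 by 0.60 and on Krt19 by 0.11, although the latter was lost without YAP5SA 1 (adjusted p = 0.0629, exact permutation test). The ratio of Krt19 to Krt18 changed by −0.12. Krt4 gained 3.78 on Krt8, from −3.90 ± 0.23 to −0.12 ± 0.09, so that its counts came close to those of Krt8 in YAP5SA. Krt4 also gained 2.86 on its partner Krt13, whose counts it exceeded in all libraries. Krt20 gained 2.64 on Krt18, and Krt8 gained 3.45 on Krt23, while its ratio to Krt20 changed by −3.26 and to Krt19 by −0.49.

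**Figure D4:**
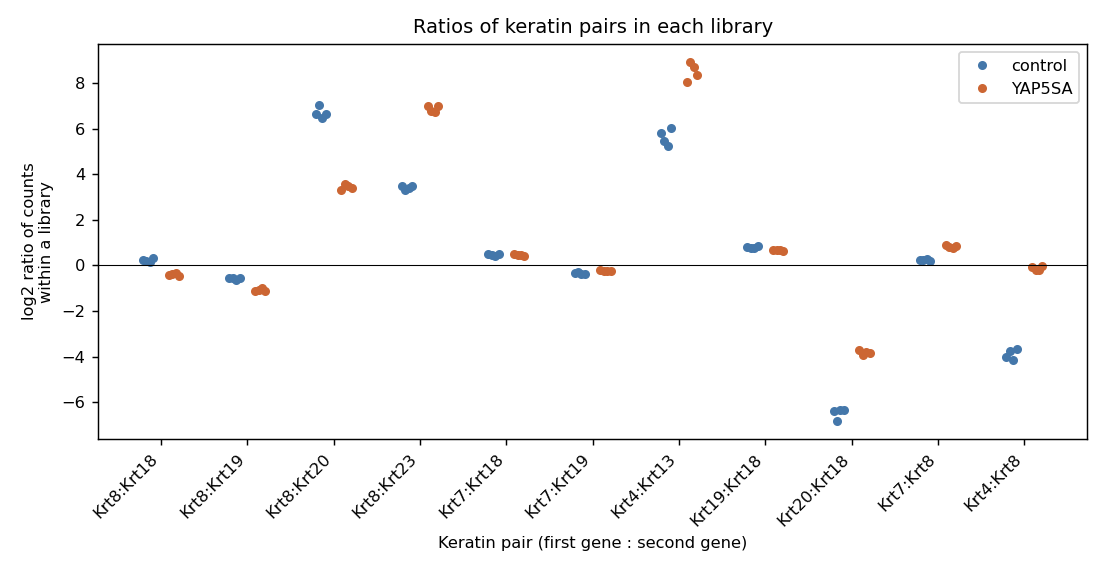
Log2 ratio of the counts of 2 keratin genes within each library, for the 11 tested pairs, with 1 point per library. The groups were apart in 10 pairs and overlapped for Krt7 to Krt18, where all 8 libraries lay between 0.41 and 0.50.

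Keratin genes lie in a type I cluster on chromosome 11 and a type II cluster on chromosome 15, which also holds the type I gene Krt18 at its end. The table held 27 keratin genes on each chromosome, by symbol in GENCODE M21. Direct neighbours moved in opposite directions in some places and in the same direction in others. Krt20 and Krt23 on chromosome 11 changed by 2.52 and −4.18 on the log2 scale, while the neighbours Krt15 and Krt19 both fell (−1.61 and −0.24). Along the end of chromosome 15 came Krt4 (3.03), Krt79 (−2.10), the untested Krt78, Krt8 (−0.73) and Krt18 (−0.12), and at its start Krt80 (1.19) lay beside Krt7 (−0.13). Between the called genes stood runs of genes with few or no counts.

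**Figure D5:**
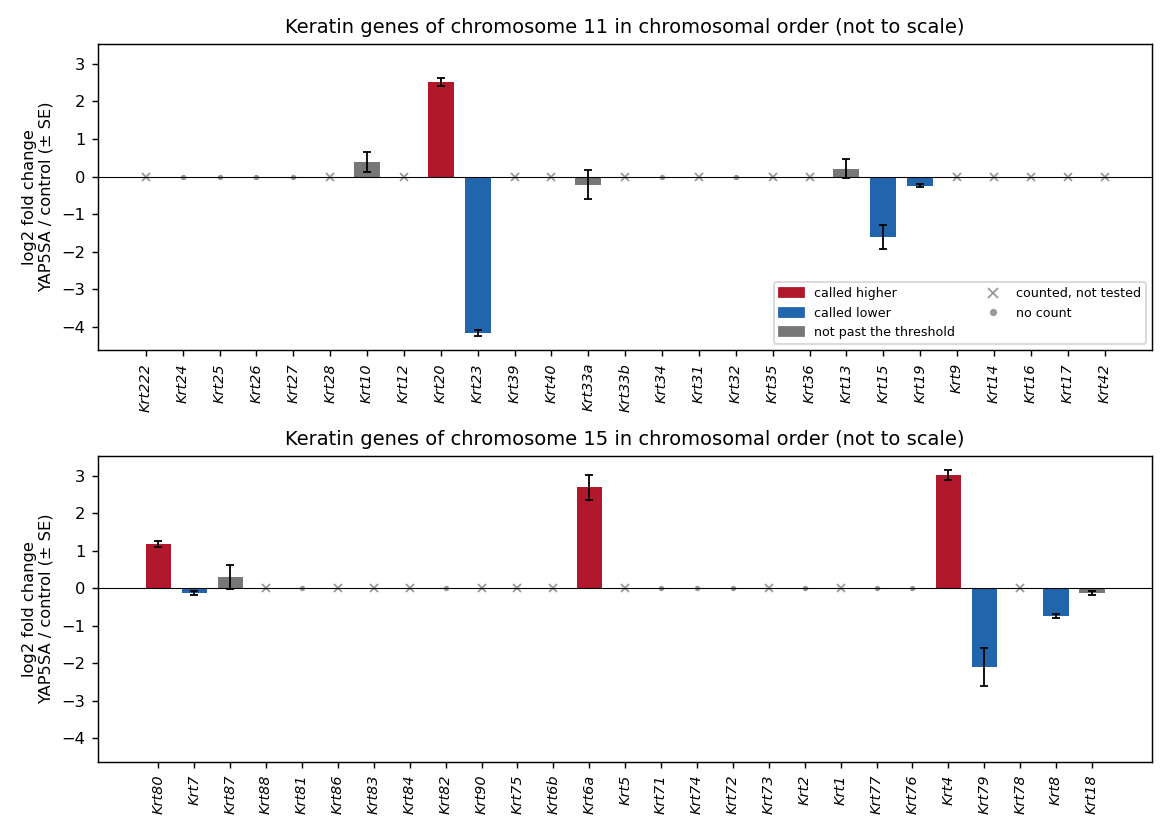
Log2 fold change of YAP5SA over control (± SE) for the keratin genes of chromosomes 11 and 15 in chromosomal order, spaced evenly and not to scale, with crosses for untested genes with counts and dots for genes without a count. Krt20 (2.52) stands next to Krt23 (−4.18), and Krt4 (3.03) next to Krt79 (−2.10).

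Genes that anchor or regulate keratin filaments were read from lists. The shares of all tested genes called higher (23.6%) and lower (25.5%) are the background for these counts, and nothing particular to a list is read from them. Of 6 linkers of keratin to junctions, 2 rose and none fell. Ppl (periplakin) rose from 174 ± 14 to 304.3 ± 18.7 CPM and Evpl (envoplakin), its partner, rose 1.43-fold, while the most abundant linker Dsp (desmoplakin) had 506.3 ± 59.3 and 470 ± 23 CPM (adjusted p = 0.22, edgeR). Of 5 desmosomal plaque genes 3 rose and 1 fell. The plakophilin gene Pkp1 rose 2.77-fold, from 3.19 ± 0.72 to 8.86 ± 0.88 CPM, Jup (plakoglobin) rose 1.17-fold, and Pkp2 fell to 0.892 of its control level. The most abundant plaque gene, Pkp4, had 249.6 ± 9.5 and 239.3 ± 3.6 CPM and did not pass the test (adjusted p = 0.302, edgeR).

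Of 8 tested keratin-binding and regulating genes, 3 rose and 2 fell. The most abundant, Ywhaz, a 14-3-3 protein gene, fell by 0.23 on the log2 scale, and Hspb1, a small heat shock protein gene, and Fbf1 rose 1.55-fold and 1.23-fold. Of 6 tested genes of other intermediate filaments, 4 rose and 1 fell. Synm (synemin) fell from 40.5 ± 4.7 to 1.61 ± 0.53 CPM, the lamin genes Lmnb1 and Lmna rose 1.26-fold and 1.19-fold, and Vim rose to no more than 15.5 CPM in any library. Median log2 fold changes were 0.06 for linkers, 0.22 for the plaque, 0.03 for regulators and 0.29 for other filaments, against 0 for all tested genes.

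A list of transcription regulators of keratin genes and stratified or gastric epithelium held transcription factors and the receptor gene Notch1. Of its 21 tested genes, 13 rose, 6 fell and 2 were not called, against 23.6% and 25.5% of all tested genes called higher and lower. Their median log2 fold change was 0.37. By the smallest adjusted p, these were led by Hnf4a, which fell by 5.04 on the log2 scale, and by Klf4 and Ehf, which rose by 2.48 and 1.71. By CPM, without regard to length, Ehf, an epithelial ETS factor, was the most abundant in YAP5SA, at 1002 ± 25 CPM. In controls Elf3 was, at 442.6 ± 38.6 CPM against 305.1 ± 15.1 CPM for Ehf, and Elf3 fell by 0.43 on the log2 scale. Tfap2a, the AP-2 factor of ectoderm, rose from 0.364 ± 0.178 to 11.4 ± 0.8 CPM, and Grhl3 and Zfp750, regulators of epidermal differentiation, changed by −2.17 and −2.82 on the log2 scale. These 3 were chosen after their values were seen. Trp63, the master factor of basal keratinocytes, had 2 counts in controls and 0 in YAP5SA.

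Some facts of the series bear on all of these values. Total counts per library ran from 13672268 to 19710648. Xist was at 675.6 to 1049 CPM in controls and 0.412 to 2.76 CPM in YAP5SA, and 4 Y-linked genes were at 39.3 CPM or more in YAP5SA and at most 0.325 CPM in controls, so that the sex of the cells and the genotype cannot be told apart. Yap1 had 160 and 153.3 CPM (adjusted p = 0.339, edgeR), and the transgene may not be counted on it, so it does not check the labels. The epithelial gene Epcam was at 430.2 to 530.3 CPM in controls and 621.4 to 665.9 CPM in YAP5SA. Of 12 markers of gastric epithelium 9 fell and 2 rose, against 25.5% and 23.6% of all tested genes called lower and higher. Their summed level went from between 4016 and 4399 CPM to between 1759 and 1854 CPM. By the smallest adjusted p the markers were led by the gastrokine genes Gkn2 (50.4 CPM in controls) and Gkn1 (53.5) and the trefoil factor gene Tff1 (71.5). Each of them was at no more than 1.27 CPM in any YAP5SA library. Much of the fall in the sum lay in Cldn18 (1353 to 2.05 CPM) and Pgc (585.9 to 1.075 CPM). The most abundant marker, the cadherin gene Cdh1, fell from 1441 to 1082 CPM.

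Markers of other keratin-rich epithelia moved as follows, and their part in the keratin results was not tested. The background for all marker counts below is 23.6% of tested genes called higher and 25.5% called lower. Of 6 markers of squamous basal cells, 4 were tested, 1 rose and 2 fell, with a summed level of 489.2 to 605.1 CPM in controls and 433.6 to 509.2 CPM in YAP5SA. Most of that sum was the integrin genes Itga6 (control mean 292 CPM, YAP5SA mean 235.2) and Itgb4 (221.1 and 152.8). The sum is therefore not read as a level of squamous basal cells. Dsg3 had means of 0.899 and 0.645 CPM, and the defining members Trp63 and Col17a1 had at most 2 counts in a group. Of 14 markers of squamous suprabasal cells without keratins, 9 were tested, 3 rose and 4 fell. Their sum was 975 to 1085 CPM in controls and 369.2 to 418.2 CPM in YAP5SA. Its largest part in controls was Sprr1a, which fell from 584.4 to 25 CPM, as did Dsc2 (167.9 to 29.6 CPM), Ivl and Cnfn. Against the sum, Sprr3 rose 36.6-fold, Rptn 21.6-fold and Tgm1 4.57-fold, and Sprr1b, Crnn, Dsg1a and Krtdap were at 0 in all libraries. The 4 markers of urothelial umbrella cells, which also use Krt20, summed to 1.77 to 2.06 CPM in controls and 12.4 to 20.2 CPM in YAP5SA, which rested on Upk3a (0.414 CPM in controls, 10.75 to 17.7 CPM in YAP5SA), while Upk1a and Upk2 were at most 0.644 CPM.

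Of 5 mesothelial markers 4 were tested, with 2 higher and 1 lower, a sum of 3114 to 3563 CPM in controls and 1317 to 1656 CPM in YAP5SA, most of it Msln, and at most 3 counts of Wt1 in a group. The 4 airway club cell markers summed to 0.126 to 0.704 CPM in controls and 155.5 to 207.2 CPM in YAP5SA, nearly all of it Cyp2f2, with Scgb3a2 at 0 and Scgb1a1 at 3 and 8 counts. Markers of mesenchyme summed to at most 4.04 CPM in any library, and those of erythroid cells to at most 0.842 CPM. Immune markers summed to 19.6 to 39.1 CPM in controls and 9.66 to 10.4 CPM in YAP5SA, endothelial markers to 6.5 to 13.7 and at most 0.842 CPM, and enteric neural markers to 5.68 to 10.1 and 3.04 to 4.01 CPM. Each of these 3 sums in controls was mostly 1 gene, Cd68 (28.5 and 7.88 CPM), Tek (8.88 and 0.317 CPM) and Ret (7.36 and 3.17 CPM). Of the other immune markers, Csf1r rose 7.46-fold to 1.49 CPM and Ptprc was at 0.514 and 0.39 CPM, while the endothelial genes Pecam1 and Cdh5 had at most 13 counts in a group.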

How the data were processed

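Total RNA was sequenced in 8 libraries (paired ends of 150 bases, per the labels). The authors deposited raw read counts per gene symbol. Cutadapt, HISAT2 2.0.1, HTSeq 0.6.1 and mm9 are named in the submitters' processing notes; annotation and strandedness were not given in the sources used here. The 2639 rows without a gene name (0.19% to 0.221% of a library) were left out and rows that share a symbol were summed. Genes were kept by filterByExpr (minimum count 10, minimum total 15), normalized by TMM, and fitted by genotype alone with edgeR 4.0.16 (R 4.3.3; robust glmQLFit, then glmQLFTest); p-values were adjusted by Benjamini-Hochberg. The common biological coefficient of variation was 7.97%. SE is |log2 fold change| over the root of the F statistic. CPM are relative to the TMM-scaled total of tested genes. Pair ratios used a pseudocount of 0.5. Intervals and floors cover counting error only. Lengths and gene order came by symbol from GENCODE M21 (GRCm38), which matched all 54 keratins, 53 of them with a protein-coding transcript. Promoters came from RefSeq. The files' build differs, so no gene coordinates were taken from it.

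Every keratin of the rule is accounted for; of the other lists, the 3 called genes with the smallest adjusted p and the most abundant gene are named, and markers of other cell types are given by counts and summed level, with the genes that carry a sum named after their values were seen. The members, lists and tests were chosen with earlier results of these data known. On simulated counts modelled on these libraries (13844 genes), changes of 1.5-fold were found in 76.1%, of 2-fold in 88.1% and of 4-fold in 96.7% of cases. Of the simulated calls 2.89% were false. Only 67, 67 and 60 genes carried these changes, while 49.1% of genes were called in the real data, so these shares need not hold there. Alternatives were other scalings (library size, DESeq2's factors), the DESeq2 1.42.0 Wald test, other filters, a threshold of 0.01, a replicate block, leaving out each library, a pseudocount of 2, only the tested keratins for the shares, and, chosen after seeing the data, the union of all exons as length.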

Additional observations from a re-analysis of the deposited data

Results flagged for a closer look

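Among 56 sets of 4 values of keratin levels, shares and pair ratios, 4 held a library whose gap to the nearest other exceeded Dixon's 95% critical value of 0.829 of the range, where chance gives about 1 in 20. Krt15 was at 2.38 CPM in control 2, with the nearest control at 1.58 CPM. Type I keratins took 52.96% of keratin counts in control 3, with the nearest control at 51.47%. The log2 ratio of Krt20 to Krt18 was −6.83 in control 2, with the nearest at −6.39. The log2 ratio of Krt7 to Krt8 was 0.18 in control 4, with the nearest at 0.26.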

How the results depend on the processing

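The numbers of keratins called higher and lower ranged from 4 to 5 and from 5 to 9 over all settings run (4 to 5 and 5 to 7 without 1 library). The 9 came from the fit without a filter on low counts, in which 40 keratins were tested instead of 15. In that fit 28% of all genes were called, against 49.1% in the main fit. Krt4, Krt6a, Krt20 and Krt80 were called higher, and Krt8, Krt15, Krt19 and Krt23 lower, in all settings, while Krt79 left the tested genes with a filter at 1 CPM. Krt90 was tested and called lower without control 3 or any 1 YAP5SA library. Krt13, which did not pass, had a log2 fold change of −0.01 without YAP5SA 1 and 0.36 without YAP5SA 2 (the cause was not tested). With the union of all exons as length, the share of Krt4 rose by 11.6 instead of 10.4 percentage points, a shift that follows from the longer models of Krt7 and Krt19. Same-numbered libraries of the 2 groups did not deviate together (correlations −0.08 to 0.09). With 4 libraries in a group, such correlations cannot exclude a pairing. A replicate block gave 6586 called genes against 6899, with 4 keratins higher and 5 lower, since Krt7 lost its call (adjusted p = 0.0859, edgeR). The best match of a control was its own number for 2 of 4. A threshold of 0.01 also left Krt7 out. The sign-flip test of 4 pairs cannot go below 0.125. Library size as the only scaling gave 3635 genes higher and 3282 lower, against 3315 and 3584. For the 39 untested keratins, low expression and insufficient depth were not told apart.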
